A study of Mus musculus with 8 samples.

Results

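The regulators of bone and cementum mineralization described here are 33 genes, chosen by name from the 20926 genes of an RNA-seq table of mouse molar mesenchyme. All 33 were found in the table. It holds 4 control libraries (Ezh2 fl/fl) and 4 mutant libraries (labelled Osr2KI-Cre;Ezh2fl/fl), all from molars at postnatal day 3. Both groups carry the floxed *Ezh2* alleles, and only the second carries Cre, which the *Osr2* locus drives in the dental mesenchyme and not in the dental epithelium. The study asked what loss of the histone methyltransferase Ezh2 in the dental mesenchyme does to molar root development. The labels give C57BL/6 as the strain, while the study's methods speak of a mixed background. The labels state no sex and do not say whether each sample came from a separate animal, so p-values measure the spread between these samples.

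Bone and cementum mineralize when osteoblasts and cementoblasts secrete a collagen matrix into which calcium phosphate crystals grow. *Runx2* and *Sp7* encode transcription factors that direct osteoblast differentiation. Alkaline phosphatase removes pyrophosphate, an inhibitor of crystal growth, while *Enpp1* makes it and *Ank* exports it. Parathyroid hormone and vitamin D act on these cells through the products of *Pth1r* and *Vdr*.

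Values are the deposited normalized values of each gene, which carry no gene-length factor. The smallest value of each library, 0.0129 to 0.0190, was taken as 1 read. The depth estimated in this way was 50.4 to 66.8 M reads in control libraries (median 57.3). It was 48.3 to 68.8 M reads in mutant libraries (median 62.2). Fold changes are on the log2(value + 1) scale, mutant minus control. The limma fit took in 14854 genes, those reaching a value of 1 in 4 or more libraries. Adjustment of p-values ran over all of them. Of the 33 genes, 32 had a value of at least 1 in all 8 libraries, and *Bglap3* did not pass the filter.

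The targeted gene, *Ezh2*, had values of 55.0, 38.3, 39.6 and 39.0 in the 4 control libraries, in order of replicate number, and 35.2, 30.1, 23.2 and 36.0 in the 4 mutant libraries. The groups did not overlap (exact permutation p = 0.0286, two-sided, the lowest value possible with 4 samples on each side). Its log2 fold change was -0.46 (SE 0.16, adjusted p = 0.235 from limma). A covariate for enamel transcripts, the average of log2 *Enam*, *Ambn* and *Amelx* in each library, is called the enamel covariate. With it the fold change of *Ezh2* was -0.64 (adjusted p = 0.0274 from limma). Gene-level values do not separate the deleted exons, and *Gm26625* and *Gm44282* overlap *Ezh2* on the opposite strand. Transcripts of the dental epithelium, where Cre is not driven, were present. The ameloblast gene *Amelx* had values of 349, 1377, 9733 and 16250.4 in the control and 807, 376, 7818 and 316 in the mutant libraries, although the labels say that the epithelium was removed. Control libraries 3 and 4 and mutant library 3 were the enamel-rich libraries. The mesenchymal genes *Msx1*, *Pax9*, *Barx1*, *Osr2*, *Lhx6* and *Vim* summed to 1717 to 2037 in control and 1489.6 to 2005 in mutant libraries.

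*Vdr*, *Nell1* and *Pth1r* were higher and *Enpp1* was lower in mutant molars at an adjusted p under 0.05. Of the 32 mineralization genes tested, 3 (9.38%) were called higher, where 1.56% of all genes tested were, and 1 (3.12%) was called lower, where 0.512% were. At an unadjusted p under 0.05, 6 (18.8%) were higher and 5 (15.6%) were lower, against 8.27% and 4.87% of all genes tested. All mutant values lay above all control values for 4 of the 32 genes and below them for 2, against 5.76% and 2.77% of all genes tested. The median log2 fold change was 0.00 over the 32 genes and 0.01 over all genes tested. A positive log2 fold change was found for 16 of the 32 genes, or 50%, and for 54.1% of all genes tested. In this bulk tissue, fewer cells of a type and less RNA per cell cannot be told apart. After control libraries 3 and 4 and mutant library 3 were left out, a choice made after seeing the data, limma called none of these genes at an adjusted p under 0.05, and of all 14435 genes in that fit it called 1 higher and 0 lower, against 232 and 76 of 14854 in the fit of 8 libraries. The log2 fold changes were then 0.54 for *Vdr*, 0.99 for *Nell1*, 0.42 for *Pth1r* and -0.84 for *Enpp1*. At an unadjusted p under 0.05 it then gave 5 higher (15.6%) and 4 lower genes (12.5%), against 3.93% and 2.92% of all genes in that fit.

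**Figure D1:**
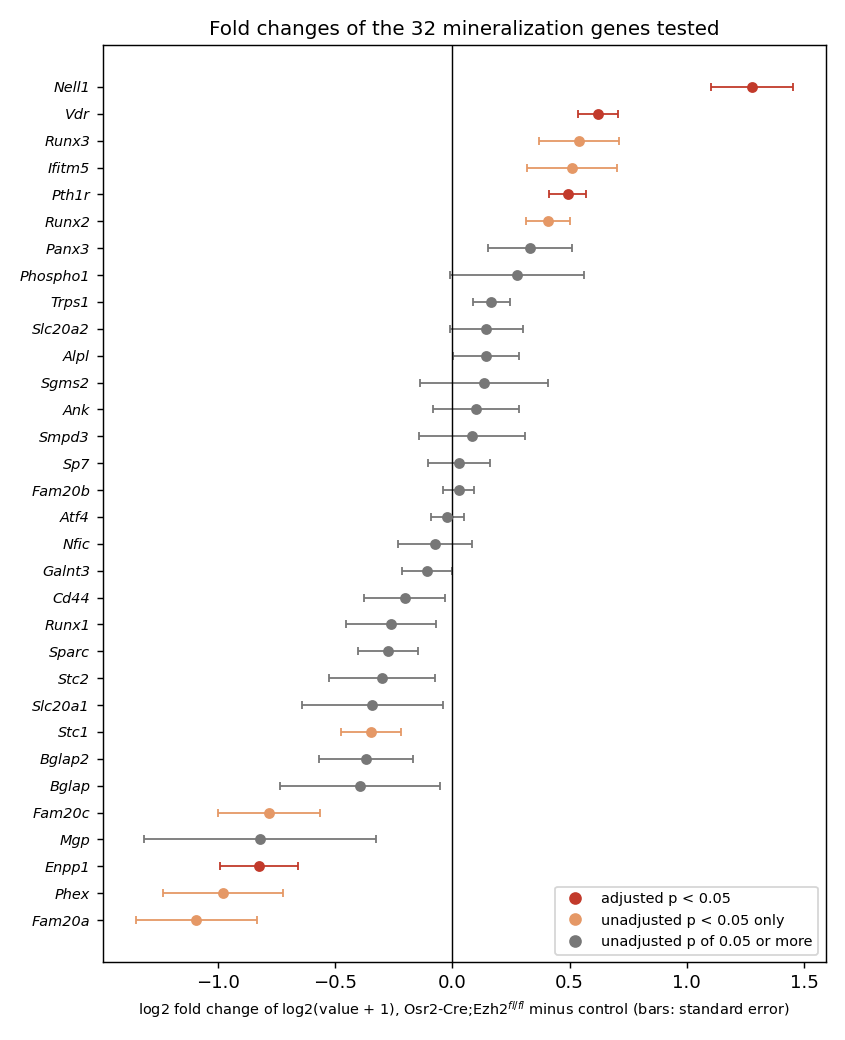
Log2 fold changes of the 32 mineralization genes tested, on the log2(value + 1) scale, as mutant minus control (n = 4 each). Points are limma estimates, bars are standard errors, and colours mark adjusted and unadjusted p-values. *Nell1* is at the top with 1.28 and *Fam20a* at the bottom with -1.09.

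Among the 8 transcription factors, *Vdr* rose. It encodes the nuclear receptor for active vitamin D and lies at chr15:97854425-97910630 (minus strand) in mm10, where it overlaps no other annotated gene. *Vdr* values were 106, 97.7, 86.1 and 104 in the control libraries and 159.9, 150.2, 160.0 and 137 in the mutant libraries. The lowest mutant library was above the highest control library, and no library stood apart from its group. Group means were 98.4 ± 8.92 in control and 152 ± 10.97 in mutant molars (SD, n = 4 each), a ratio of 1.54. On the log2 scale *Vdr* differed by 0.62 (SE 0.08, adjusted p = 0.00709 from limma), and the adjusted p was at most 0.0298 with any 1 library left out.

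*Runx2*, which encodes the factor that commits mesenchymal cells to the osteoblast fate, had values of 55.9, 72.4, 62.3 and 57.1 in the control libraries and 86.0, 84.9, 85.2 and 73.2 in the mutant libraries. The groups did not overlap, although mutant library 4, the lowest of its group, was close to control library 2. With 0.41 (SE 0.09) on the log2 scale *Runx2* did not pass the threshold (adjusted p = 0.0678 from limma, exact permutation p = 0.0286). Leaving out control library 2 gave 0.49 with an adjusted p of 0.0415. The gene lies at chr17:44495987-44814797 (minus strand) and overlaps *n-R5s27* on the same strand and *Supt3*, *Runx2os1*, *Runx2os2* and *Runx2os3* on the opposite strand. Whether reads were counted by strand is not stated in the labels.

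*Runx3*, a paralog with roles in chondrocytes and osteoblasts, had values of 35.9, 25.3, 24.5 and 22.2 in control and 33.2, 50.9, 33.9 and 40.6 in mutant libraries 1 to 4. Control library 1 lay within the range of the mutant libraries, and the other 3 control libraries lay below it. *Runx3* had a log2 fold change of 0.54 (SE 0.17, adjusted p = 0.177 from limma, exact permutation p = 0.0857), and 0.36 with the enamel covariate (adjusted p = 0.259 from limma). For *Runx1*, *Sp7*, *Atf4*, *Nfic* and *Trps1* the log2 fold changes ran from -0.26 for *Runx1* to 0.17 for *Trps1*. *Sp7*, which acts downstream of *Runx2* in osteoblasts, had means of 122 ± 18.8 in control and 124 ± 17.3 in mutant molars (SD, n = 4 each). *Atf4*, which sustains amino acid supply in osteoblasts, had a log2 fold change of -0.02 (SE 0.07). *Nfic*, required for root formation in mice, had -0.07 (SE 0.16). None of these 5 had an unadjusted p under 0.05.

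The 3 *Runx* genes share a sequence feature near their RefSeq starts. RefSeq windows (GRCm38.p6, the build of mm10) from 250 bases before to 50 bases after each gene's start were matched for 25 of the 33 genes and for 10666 of the genes tested. The letters TGTGGT, the core bound by RUNX proteins, or their reverse complement ACCACA, occurred in 8 of the 25 windows (32%) and in 1272 of the 10666 (11.9%). The 8 were the windows of *Runx1*, *Runx2*, *Runx3*, *Bglap*, *Enpp1*, *Sgms2*, *Slc20a1* and *Sparc*. A pair of matches 2 bases apart, ACCACANNACCACA or its reverse complement TGTGGTNNTGTGGT, occurred in 3 of the 10666 windows (0.0281%), which were those of *Runx1*, *Runx2* and *Runx3*. The spacing was chosen after the windows were read. A match describes the letters only. The windows lie at chr16:92826025-92826324 (minus strand), chr17:44814578-44814877 (minus strand) and chr4:135120395-135120694 (plus strand), and are printed 5′ to 3′ with the matches in capitals.
Runx1: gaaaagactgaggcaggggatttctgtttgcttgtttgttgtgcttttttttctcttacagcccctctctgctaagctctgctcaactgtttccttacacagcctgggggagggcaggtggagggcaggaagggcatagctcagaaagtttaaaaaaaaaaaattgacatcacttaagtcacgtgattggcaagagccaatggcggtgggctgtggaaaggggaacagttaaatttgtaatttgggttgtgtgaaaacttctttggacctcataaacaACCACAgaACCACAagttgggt
Runx2: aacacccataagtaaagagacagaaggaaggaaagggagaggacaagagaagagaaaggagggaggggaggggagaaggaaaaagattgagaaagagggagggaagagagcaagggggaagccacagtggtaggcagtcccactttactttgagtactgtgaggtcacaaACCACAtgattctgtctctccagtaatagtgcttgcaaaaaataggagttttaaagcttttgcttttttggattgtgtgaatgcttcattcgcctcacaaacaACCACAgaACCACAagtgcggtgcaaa
Runx3: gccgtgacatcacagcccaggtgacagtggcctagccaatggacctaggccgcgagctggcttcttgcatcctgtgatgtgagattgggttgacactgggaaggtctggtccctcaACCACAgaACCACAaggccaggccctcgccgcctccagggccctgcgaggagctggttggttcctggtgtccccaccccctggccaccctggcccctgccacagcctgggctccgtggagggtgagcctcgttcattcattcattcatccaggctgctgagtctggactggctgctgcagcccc

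Among the 8 enzymes and transporters of phosphate, pyrophosphate and sphingomyelin, *Enpp1* fell. It encodes the ectoenzyme that makes pyrophosphate from nucleotide triphosphates and lies at chr10:24637914-24712159 (minus strand), with no overlapping gene. *Enpp1* values were 45.9, 63.1, 61.6 and 37.2 in the control libraries and 30.6, 27.2, 24.5 and 31.2 in the mutant libraries. Every mutant library was below every control library, and control library 4 was the lowest control. Means were 51.9 ± 12.5 in control and 28.3 ± 3.12 in mutant molars (SD, n = 4 each), a ratio of 0.546. On the log2 scale *Enpp1* differed by -0.83 (SE 0.16, adjusted p = 0.0386 from limma). This call was kept in 1 of the 8 fits with 1 library left out. Without control library 1, 2 or 3 the adjusted p was 0.0546, 0.103 and 0.136, and without control library 4 it was 0.0197. Without mutant library 1, 2, 3 or 4 it was 0.0554, 0.111, 0.0955 and 0.0818. With a filter at a value of 10 it was 0.0538. Its log2 fold change stayed between -0.97 and -0.72 in the fits with 1 library left out.

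The other 7 genes of this role had unadjusted p-values above 0.05 without a covariate. *Alpl*, which encodes the tissue-nonspecific alkaline phosphatase, had means of 853 ± 81.1 in control and 952 ± 184 in mutant molars (SD, n = 4 each), with overlapping groups and a log2 fold change of 0.14 (SE 0.14). *Ank*, whose product moves pyrophosphate and ATP out of the cell, had a log2 fold change of 0.10 (SE 0.18). *Phospho1*, a phosphatase of matrix vesicles, had 0.28 (SE 0.29). The phosphate transporters *Slc20a1* and *Slc20a2* had -0.34 (SE 0.30) and 0.14 (SE 0.16). *Smpd3*, a neutral sphingomyelinase needed for bone and dentin mineral, had 0.09 (SE 0.23), and the sphingomyelin synthase gene *Sgms2* had 0.13 (SE 0.27). With the enamel covariate the log2 fold changes were 0.34 for *Ank* and 0.33 for *Slc20a2*, both with an unadjusted p under 0.05 (adjusted p = 0.134 and 0.169 from limma). The sign turned for *Slc20a1* (0.10), *Phospho1* (-0.07), *Smpd3* (-0.20) and *Sgms2* (-0.19), each with an unadjusted p above 0.05 in both fits. Of the genes on pyrophosphate supply and removal, *Enpp1* passed the adjusted threshold, and *Ank* and *Alpl* did not.

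Of the 8 secreted and matrix genes, *Nell1* rose. It encodes a secreted protein that promotes osteoblast differentiation and lies at chr7:49974864-50866608 (plus strand). *4933405O20Rik* overlaps it on the same strand and *Nell1os* on the opposite strand, so its reads are uncertain to that extent. *Nell1* values were 10.7, 12.0, 6.499 and 9.74 in the control libraries and 21.4, 27.8, 28.1 and 21.5 in the mutant libraries. The lowest mutant library was well above the highest control library, and control library 3 was the lowest of all. Means were 9.72 ± 2.34 in control and 24.7 ± 3.77 in mutant molars (SD, n = 4 each), a ratio of 2.54. On the log2 scale *Nell1* differed by 1.28 (SE 0.17, adjusted p = 0.00709 from limma), and with any 1 library left out the adjusted p was at most 0.0309.

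*Stc1* and *Stc2* encode stanniocalcins, secreted glycoproteins linked to calcium and phosphate balance. For *Stc1* the values were 7.09, 7.40, 6.14 and 8.33 in control and 5.97, 4.20, 5.81 and 5.96 in mutant libraries 1 to 4. The groups did not overlap, with mutant library 1 just under control library 3. This gave *Stc1* a log2 fold change of -0.35 (SE 0.13, adjusted p = 0.264 from limma, exact permutation p = 0.0286). *Stc2* had a log2 fold change of -0.30 (SE 0.23) and overlapping groups. *Mgp*, an inhibitor of calcification in cartilage and vessels, had values of 2.88, 12.4, 9.87 and 16.4 in control and 5.89, 2.23, 9.90 and 3.16 in mutant libraries. Its values differed widely within both groups, and they overlapped. *Mgp* had a log2 fold change of -0.82 with an SE of 0.49 (adjusted p = 0.569 from limma). It ran from -1.27 to -0.55 with 1 library left out, and was -0.19 with the enamel covariate. *Sparc*, which encodes the collagen-binding protein osteonectin, had means of 2509 ± 336 in control and 2063 ± 144 in mutant molars (SD, n = 4 each) and a log2 fold change of -0.27 (SE 0.13, adjusted p = 0.405 from limma).

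The osteocalcin genes *Bglap*, *Bglap2* and *Bglap3* lie beside each other on the minus strand of chromosome 3, from 88368616 to 88384464. Osteocalcin is a small protein of mature osteoblasts that binds mineral. *Bglap* values were 52.5, 95.3, 90.7 and 77.6 in control and 72.2, 35.4, 112 and 40.4 in mutant libraries 1 to 4. The highest and the lowest library were both mutant libraries, and the groups overlapped. Log2 fold changes were -0.40 (SE 0.34) for *Bglap* and -0.37 (SE 0.20) for *Bglap2*, both with an adjusted p above 0.5 from limma. That of *Bglap* ran from -0.70 to -0.16 with 1 library left out, and was -0.03 with the enamel covariate. *Bglap3* had values between 0.336 and 0.643, which is 21 to 47 estimated reads. Reads from the coding sequence may be shared among these genes, whose coding sequences are nearly the same. Each coding sequence has 288 bases in GENCODE M21. Between *Bglap* and *Bglap2* 4 bases differ (98.6% identity), and 1 identical run is 241 bases long. *Bglap3* differs from *Bglap* at 13 bases (95.5% identity) and from *Bglap2* at 9 (96.9%). Untranslated bases were not compared. Capitals mark positions at which the 3 genes are not all alike.
Bglap: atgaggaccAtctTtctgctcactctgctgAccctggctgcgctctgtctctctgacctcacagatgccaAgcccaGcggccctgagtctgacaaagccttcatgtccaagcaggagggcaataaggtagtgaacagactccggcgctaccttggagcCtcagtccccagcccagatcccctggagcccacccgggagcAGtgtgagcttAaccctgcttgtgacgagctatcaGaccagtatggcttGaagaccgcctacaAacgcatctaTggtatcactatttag
Bglap2: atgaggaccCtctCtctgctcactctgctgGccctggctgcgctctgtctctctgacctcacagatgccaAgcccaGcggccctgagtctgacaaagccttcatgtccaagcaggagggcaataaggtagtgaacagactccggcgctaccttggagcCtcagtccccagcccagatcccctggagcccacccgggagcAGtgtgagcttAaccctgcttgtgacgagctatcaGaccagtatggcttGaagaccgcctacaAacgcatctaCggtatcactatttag
Bglap3: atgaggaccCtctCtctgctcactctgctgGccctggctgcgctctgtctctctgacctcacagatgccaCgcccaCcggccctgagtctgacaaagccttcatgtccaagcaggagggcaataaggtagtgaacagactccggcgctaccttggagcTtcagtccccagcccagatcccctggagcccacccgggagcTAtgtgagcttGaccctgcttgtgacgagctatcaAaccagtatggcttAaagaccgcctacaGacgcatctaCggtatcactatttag

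*Fam20a*, *Fam20c* and *Phex*, of the 5 kinase, glycosyltransferase and peptidase genes, each had an unadjusted p under 0.05 and an adjusted p above 0.05. *Fam20c* encodes the kinase that phosphorylates secreted mineral-binding proteins, and *Fam20a* encodes a pseudokinase that activates it. *Fam20a* values were 27.7, 35.1, 44.9 and 63.0 in control and 16.04, 15.1, 28.3 and 17.3 in mutant libraries 1 to 4. *Fam20c* values were 41.9, 51.0, 69.6 and 84.3 and 31.7, 31.2, 46.3 and 29.8, in the same order. Within each group both genes were highest in the library with the most *Amelx*, control library 4 and mutant library 3. That mutant library was the only one of its group to reach the control range, in both genes. For *Fam20a* the log2 fold change was -1.09 (SE 0.26, adjusted p = 0.0751 from limma). It was -0.78 (SE 0.22, adjusted p = 0.122 from limma) for *Fam20c*. With the enamel covariate both were called, with -0.73 (adjusted p = 0.0105) and -0.47 (adjusted p = 0.0130). *Fam20a* also passed without control library 1 (adjusted p = 0.0416) and without mutant library 3 (adjusted p = 0.0475). In the other fits without 1 library its adjusted p was 0.1345 to 0.231. *Fam20a* lies at chr11:109669749-109722279 (minus strand) and *Fam20c* at chr5:138754514-138810077 (plus strand), both without overlapping genes.

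*Phex* encodes a membrane peptidase whose loss causes X-linked hypophosphatemia, and lies at chrX:157162075-157415312 (minus strand). *Gm15172* and *Gm25795* overlap it on the same strand and *Gm23798* on the opposite strand. Its values were 100.3, 127, 127 and 80.0 in control and 48.1, 36.9, 91.6 and 50.4 in mutant libraries 1 to 4. Of the mutant libraries, 3 lay below every control library, and library 3 lay above control library 4. *Phex* had a log2 fold change of -0.98 (SE 0.26, adjusted p = 0.1003 from limma, exact permutation p = 0.0571). Without mutant library 3 it was -1.23 with an adjusted p of 0.0240. In the other fits without 1 library the adjusted p of *Phex* was 0.112 to 0.303. With the enamel covariate its log2 fold change was -0.83 (adjusted p = 0.185 from limma). *Fam20b*, a xylose kinase of proteoglycan synthesis, had 0.03 (SE 0.07), and *Galnt3*, which glycosylates the phosphate hormone FGF23, had -0.11 (SE 0.11).

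Among the 4 receptor, channel and membrane genes, *Pth1r* rose. It encodes the receptor for parathyroid hormone and its related peptide, and lies at chr9:110722085-110747145 (minus strand), where *Myl3* overlaps it on the opposite strand. *Pth1r* values were 41.4, 48.6, 40.6 and 43.2 in control and 62.9, 55.6, 64.4 and 63.0 in mutant libraries 1 to 4. The groups did not overlap and each varied little. Means were 43.5 ± 3.57 in control and 61.5 ± 3.95 in mutant molars (SD, n = 4 each), a ratio of 1.41. On the log2 scale *Pth1r* differed by 0.49 (SE 0.08, adjusted p = 0.0133 from limma). The adjusted p was 0.0662 without control library 3 and 0.0609 without mutant library 4.

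*Ifitm5*, an osteoblast membrane protein gene mutated in a form of brittle bone disease, had values of 21.0, 22.5, 20.2 and 14.1 in control and 33.5, 27.8, 19.2 and 33.1 in mutant libraries. Only mutant library 3 lay within the control range, and the other 3 lay above it. *Ifitm5* had a log2 fold change of 0.51 (SE 0.19, adjusted p = 0.276 from limma), and 0.29 with the enamel covariate. *Gm45717* overlaps it on the same strand. *Panx3*, a channel gene of osteoblasts and chondrocytes, had 0.33 (SE 0.18). *Cd44*, the hyaluronan receptor gene, had -0.20 (SE 0.17). Across all roles, the 19 tested genes not given library by library had log2 fold changes from -0.37 to 0.33 and unadjusted p-values of at least 0.0560 from limma.

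**Figure D2:**
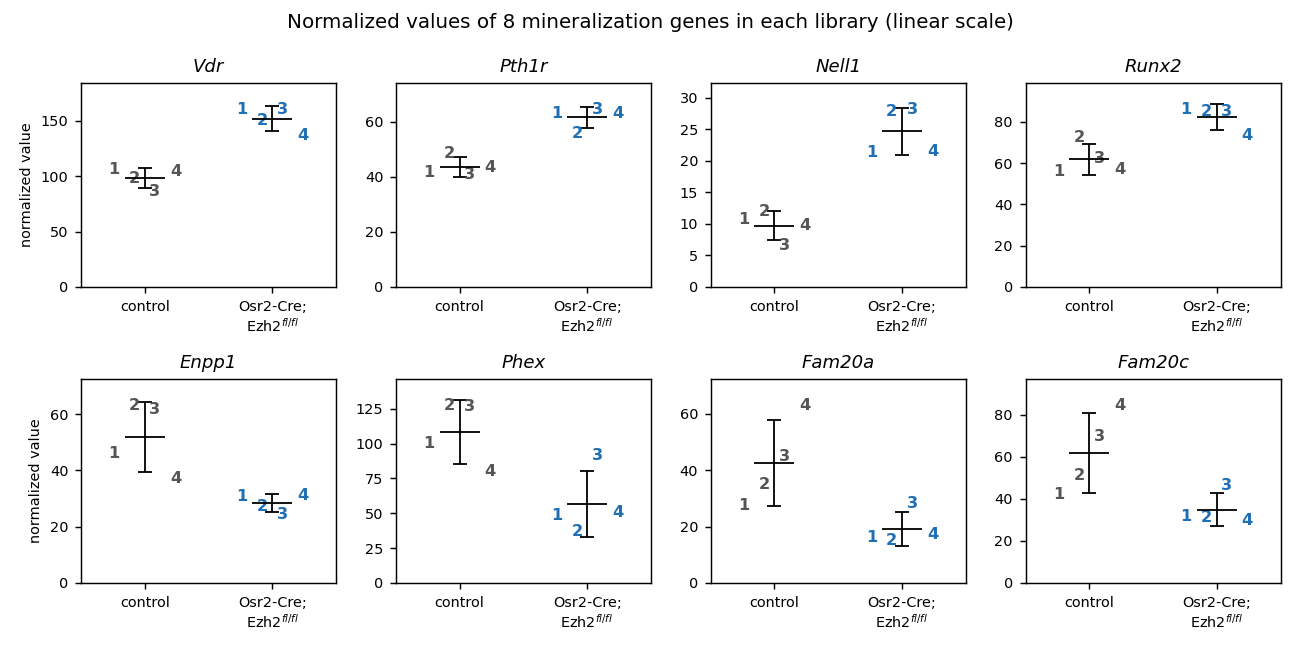
Normalized values (linear scale from 0) of 8 mineralization genes, with each library drawn as its replicate number. Horizontal lines are group means and bars are SD (n = 4). *Vdr*, *Pth1r*, *Nell1* and *Runx2* do not overlap between groups and are higher in mutant libraries, *Enpp1* does not overlap and is lower, and *Phex*, *Fam20a* and *Fam20c* overlap through mutant library 3.

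Levels of different genes were compared as the mean value per kb of annotated exon sequence. In control molars *Sparc* had the highest level, 662 per kb, followed by *Alpl* with 212, *Bglap* with 128, *Smpd3* with 93.6 and *Slc20a2* with 71.2. The called genes were lower on this scale. *Vdr* had 17.4 per kb in control and 26.9 in mutant molars, and *Pth1r* had 14.9 and 21.0. *Enpp1* had 5.06 and 2.76 per kb. *Nell1* had the lowest control level after *Bglap3*, 1.34 per kb, and 3.40 in mutant molars. Among the *Runx* genes the control levels per kb were 7.01 for *Runx2*, 5.39 for *Runx3* and 4.95 for *Runx1*.

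The library of each group with the most *Amelx* was also compared with the rest of its group. In both control library 4 and mutant library 3, the libraries in question, 7 of the 32 genes had the highest value of the group. These were *Ank*, *Slc20a1*, *Slc20a2*, *Mgp*, *Fam20a*, *Fam20c* and *Cd44*. The lowest value of the group fell in both of these libraries for 9 genes, *Sp7*, *Phospho1*, *Enpp1*, *Ifitm5*, *Nfic*, *Smpd3*, *Panx3*, *Sgms2* and *Trps1*. The shares were 21.9% and 28.1%, against 12.3% and 13.4% of all genes tested. Control library 3, also enamel-rich, was not used in this count, and the listed genes were not all alike there. *Trps1* had its highest control value there (48.5), and *Enpp1* was 61.6 against 63.1 in control library 2. *Fam20a* (44.9) and *Fam20c* (69.6) were exceeded in control library 4 alone. The part of enamel transcripts in the differences between groups was not tested beyond the covariate and the fits without single libraries or without the enamel-rich libraries.

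**Figure D3:**
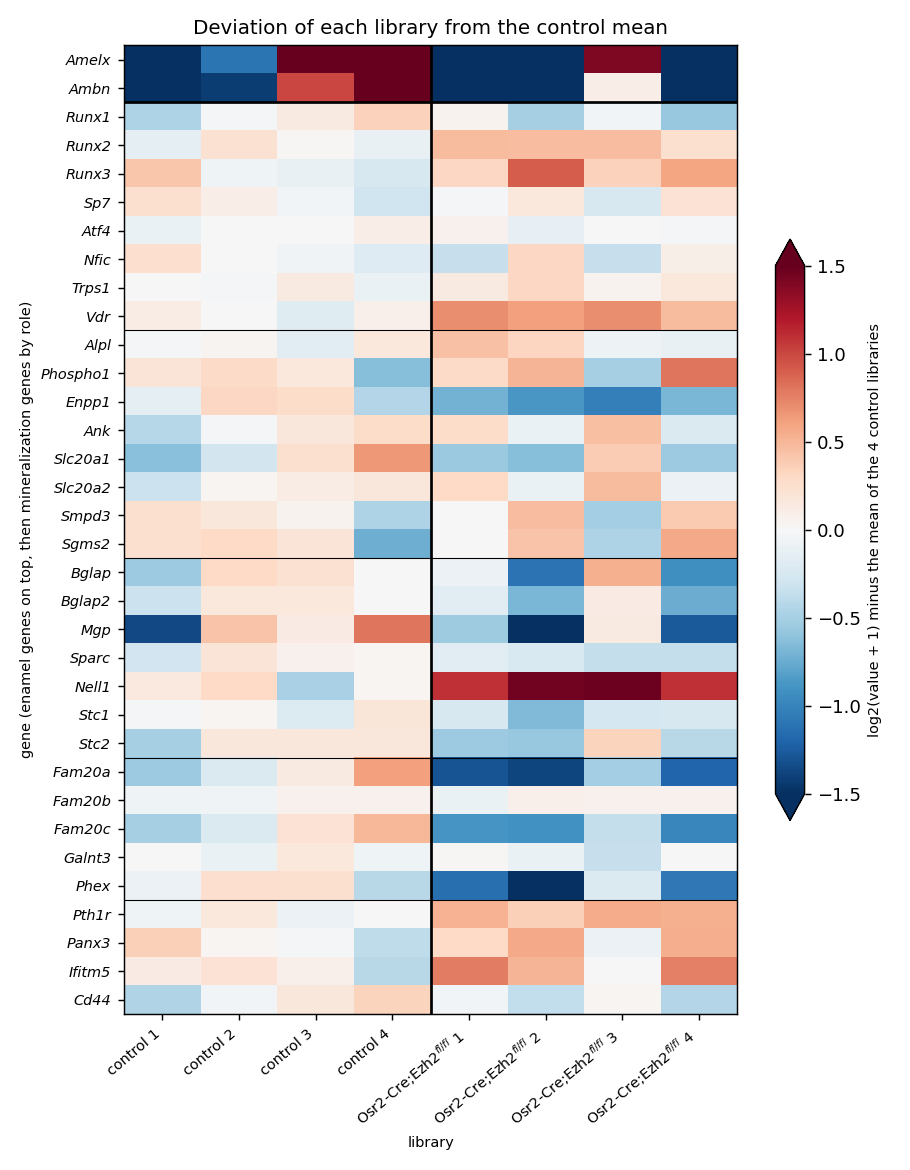
Deviation of each library from the mean of the 4 control libraries in log2(value + 1), for *Amelx*, *Ambn* and the 32 mineralization genes tested, grouped by role. Rows are genes, columns are the 8 libraries, and the colour scale stops at 1.5 in either direction. The rows of *Vdr*, *Nell1* and *Pth1r* are red in all 4 mutant libraries, and that of *Enpp1* is blue.

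Other genes of the pathway were described from 4 lists, in which 51 of 58 genes were tested. Of these 51, 5 (9.80%) were called higher and 1 (1.96%) was called lower at an adjusted p under 0.05, against 1.56% and 0.512% of all genes tested. Their median log2 fold change was -0.03, against 0.01 over all genes tested. Among 16 genes of collagenous and mineral-binding matrix, 15 were tested and *Ibsp* and *Omd* rose. *Ibsp*, which encodes the mineral-nucleating protein bone sialoprotein, had values of 82.1, 141, 119 and 114 in control and 498, 331, 396 and 437 in mutant libraries 1 to 4. The lowest mutant library was more than double the highest control library. *Ibsp* had a log2 fold change of 1.87 (SE 0.17, adjusted p = 0.00126 from limma). *Omd*, a small keratan sulfate proteoglycan of bone, had means of 558 ± 48.4 in control and 1208 ± 187 in mutant molars (SD, n = 4 each) and a log2 fold change of 1.10 (SE 0.12, adjusted p = 0.00325 from limma). *Cenpp* overlaps *Omd* on the opposite strand. With any 1 library left out *Ibsp* and *Omd* were still called. *Tnn* (0.88) and the dentin matrix gene *Dspp* (-1.13) had an unadjusted p under 0.05 alone.

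Of 12 other osteoblast transcription factors and cofactors, all tested, those called higher by limma included *Tcf7l2*, which encodes a Wnt pathway factor (0.44, SE 0.09, adjusted p = 0.0388). With 1 library left out at a time *Tcf7l2* was called in 1 of 8 fits (adjusted p up to 0.156). Its adjusted p from limma was 0.0687 with the enamel covariate and 0.0505 with the filter at a value of 10. *Twist1* (0.32) and *Twist2* (0.86), whose products restrain Runx2, passed the unadjusted threshold only. *Cbfb*, whose product binds the Runx proteins and raises their affinity for DNA, had -0.05 (SE 0.07). Of 14 hormone and local signal genes, 11 were tested, and the growth hormone receptor gene *Ghr* (0.60, SE 0.12, adjusted p = 0.0440 from limma) was called higher. It was called in 2 of the 8 fits without 1 library (adjusted p up to 0.159). For *Ghr* the adjusted p from limma was 0.0885 with the enamel covariate and 0.0629 with the filter at a value of 10. *Bmp7* (0.26) and *Bmp2* (0.40) passed the unadjusted threshold only. *Sost*, which encodes the osteocyte Wnt inhibitor sclerostin, had values of 0.581 to 0.791 in control and 1.17 to 3.92 in mutant libraries. It met the filter only through the mutant libraries, so no conclusion is drawn from its test. Of 16 phosphate, calcium and matrix vesicle genes, 13 were tested, and the carbonic anhydrase gene *Car2* was called lower (-0.72, SE 0.12, adjusted p = 0.0164 from limma). *Car2* was called in 6 of the 8 fits without 1 library (adjusted p up to 0.0662). *Nt5e* (-0.40), whose product makes adenosine from the AMP that *Enpp1* releases, and *Tmem119* (0.40) passed the unadjusted threshold only.

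Markers of cell types that carry these genes differed between groups or libraries. For chondrocytes, 3 of 3 markers tested were called higher by limma. *Acan* and *Col9a1* were called with any 1 library left out, and *Col2a1* in 2 of those 8 fits (adjusted p up to 0.0877). The list summed to 16.5, 19.95, 13.4 and 14.8 in the control libraries and 31.6, 77.5, 53.7 and 66.4 in the mutant libraries. *Col2a1* was its most abundant gene, and the hypertrophic marker *Col10a1* stayed near 0, with means of 0.563 and 0.611. The osteoblast and osteocyte list, in which 3 of 7 genes are also mineralization genes described above, summed to 473, 588, 543 and 429 in control and 796, 617, 750.4 and 757 in mutant libraries. *Ibsp* led it and was the 1 gene called of 6 tested. Without *Ibsp* the list summed to 391, 447, 424 and 316 in control and 298, 287, 354 and 319.8 in mutant libraries, which overlapped. The median log2 fold change of the 6 was -0.16, with 3 positive and 3 negative, and *Mepe* was near 0 with a mean of 0.360 over all libraries. The positive genes included *Sost*, which met the filter only through the mutant libraries, so its sign was fixed by the filter. The odontoblast list of *Dspp*, *Dmp1* and *Nes*, led by *Dspp*, summed to 1845, 2605, 3267 and 2754 in control and 1109, 1045, 2647 and 1272 in mutant libraries. None of its 3 genes was called, with unadjusted p under 0.05 for *Dspp* alone. As with *Phex*, *Fam20a* and *Fam20c*, mutant library 3 was the one mutant library within the control range. The part of these cell types in the results for *Vdr*, *Nell1*, *Pth1r*, *Phex*, *Fam20a* and *Fam20c* was not tested.

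The ameloblast list, led by *Amelx*, summed to 759, 2375, 15720.2 and 28535 in control and 1312, 841, 11435 and 697 in mutant libraries. *Amtn*, a marker of later ameloblasts, was near 0. Epithelial markers, led by *Krt5*, ranged from 1633 to 3649.5 in control and from 1571 to 2170.2 in mutant libraries. The osteoclast list, led by *Ctsk*, ranged from 223 to 1174 and from 195 to 907, with *Calcr* near 0. It was highest in control library 2 and mutant libraries 1 and 3. None of the tested genes of these 3 lists was called. *Aspn* was called higher among 3 tested follicle and ligament markers (1.56, adjusted p = 0.0499 from limma) and in none of the 8 fits without 1 library (adjusted p 0.0555 to 0.135). *Cenpp* overlaps it on the opposite strand. That list, led by *Postn*, ranged from 155 to 301 and from 258 to 540.3, and *Scx* was near 0. Endothelial sums were 299 to 338 and 262 to 281, immune sums 71.0 to 124 and 91.5 to 99.8, and red blood cell sums 255 to 450.2 and 302 to 694. Skeletal muscle sums were 3.67 to 19.0 and 0.542 to 6.19, highest in control library 4. No gene of the last 4 lists or of the mesenchymal list was called.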

How the data were processed

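RNA-seq of molar mesenchyme was analysed in 8 libraries, 4 per group, and no library was left out. The deposited signal values, normalized by the authors, were taken as an estimated number of reads plus 1, times a factor of each library. This form was inferred from the values, whose 75th percentile was 38.5 in every library. The submitters' processing notes name STAR 2.5.3a, CASAVA 1.8.2, Partek and mm10, while the study's methods name TopHat and RPKM, and the values carry no length factor. Between 57.4% and 62.8% of low values were whole multiples of the smallest, within 0.01, so no count test was run.

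Differences were fitted with limma 3.58.1 (R 4.3.3, lmFit and eBayes with a trend) on log2(value + 1) and adjusted by the Benjamini-Hochberg method. Single genes were also compared by exact permutation over 70 arrangements. The fit was tested on simulated data with independent noise of 1 common SD for all genes. These data held no shifts shared by genes of a library, such as those of enamel transcripts. The simulation therefore cannot show how the fit behaves with such shifts. The genes and lists were chosen with earlier results of these data known. Values in every library are given for mineralization genes with an unadjusted p under 0.05, without overlap between groups, or with over 3-fold range. Alternatives were other pseudocounts (0.1 and 5), filters, scalings, no trend, a replicate block, enamel and *Xist* covariates, and each library left out. Coordinates are from GENCODE M21. *Matn1*, *Myog*, *Myod1*, *Slc34a1* and *Ahsg* were not analysed here.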

Additional observations from a re-analysis of the deposited data

Results flagged for a closer look

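On the log2(value + 1) scale, 1 library lay far from the other 3 of its group in 11 of 68 groups of 4, which cover the 33 mineralization genes and *Ezh2*. Chance gives about 1 in 20, or 3.40 groups. Control library 4, with the most *Amelx*, was low in 2 genes. *Phospho1* was 20.8 against 36.8 to 40.5 in the other controls, and *Sgms2* was 72.0 against 137 to 148. Mutant library 3, the enamel-rich library of its group, was high in 3 genes. *Slc20a1* was 50.7 against 24.6 to 26.2 in the other mutant libraries, *Fam20c* 46.3 against 29.8 to 31.7, and *Stc2* 15.8 against 8.01 to 9.01. Mutant library 2 was low in *Pth1r* (55.6 against 62.9 to 64.4) and in *Stc1* (4.20 against 5.81 to 5.97). In mutant library 4 *Runx2* was 73.2 against 84.9 to 86.0, and in mutant library 1 *Fam20b* was 89.9 against 100.4 to 102. Control library 1 was low in *Stc2* (8.44 against 14.0 to 14.0) and high in *Ezh2* (55.0 against 38.3 to 39.6).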

How the results depend on the processing

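Directions held for the 13 mineralization genes given library by library and *Ezh2*. Of 264 comparisons of these fold changes with an alternative, 240 stayed on their side of the adjusted p threshold, 17 lost a call, 7 gained one and none changed sign. Single libraries decided several counts. With each left out in turn, 108 to 292 of all genes were called higher and 20 to 92 lower. Of the mineralization genes, 2 to 4 were called higher and 0 to 2 lower, and 5 to 9 higher and 4 to 10 lower at an unadjusted p under 0.05, where 5.49% to 9.23% of all genes were higher and 3.11% to 6.43% lower. With a filter at a value of 10, which left 10283 genes, 88 were called higher, 31 lower, and of the mineralization genes 3 higher and 0 lower. The labels do not say whether replicate numbers pair the samples, and the study's methods speak of 3 pairs as well as of 4 samples per group. Deviations of same-numbered libraries correlated at -0.34, -0.08, 0.22 and -0.43, and the numbers were not used as pairs. With the replicate block 64 genes were called higher and 9 lower, and of the mineralization genes 1 (*Nell1*) higher and 0 lower. *Vdr*, *Pth1r* and *Enpp1* then had adjusted p-values of 0.0595, 0.125 and 0.143 from limma. At an adjusted p under 0.1, 392 genes were called higher and 148 lower, among them 4 mineralization genes higher (*Runx2* was added) and 2 lower. The enamel covariate gave 216 genes higher and 86 lower, among them 3 mineralization genes higher and 3 lower. Without the 3 enamel-rich libraries, an alternative chosen after seeing the data, 1 gene (*Cthrc1*) was called higher and 0 lower of 14435, and 0 mineralization genes in either direction. That fit has 2 control and 3 mutant libraries. The adjusted p-values of *Vdr*, *Nell1*, *Pth1r* and *Enpp1* were then 0.200, 0.169, 0.357 and 0.200 from limma. The cause of these shifts was not tested. The gene *Bglap3* had 21 to 47 estimated reads and did not pass the filter, and the reason for its low values was not tested.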

Other observations

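Some genes of phosphate and calcium control lay under the filter on low values and are given as values, chosen after these were seen. *Fgf23*, which encodes the phosphate-lowering hormone of osteocytes, had values of 0.0521, 0.0805, 0.0688 and 0.0612 in libraries 1 to 4 of the control and 0.0948, 0.197, 0.240 and 0.168 in those of the mutant. The groups did not overlap and the mutant values were higher, at 2 to 16 estimated reads over the 8 libraries. The calcium-sensing receptor gene *Casr* had values of 0.330, 0.308, 0.413 and 0.275 and 0.171, 0.152, 0.212 and 0.232, with every mutant library lower, at 8 to 23 estimated reads. *Cyp24a1*, which encodes the enzyme that breaks down active vitamin D and is a known target of its receptor, had values of 0.417, 0.255, 0.413 and 0.703 and 0.208, 0.0910, 0.382 and 0.168. Its groups overlapped (exact permutation p = 0.0571), at 5 to 45 estimated reads. At these depths counting error is a large share of each value.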
